A study of Mus musculus with 10 samples.

Results

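The genes described here are the type I interferon-stimulated genes, 49 genes chosen from a list of known interferon targets. The choice was made with earlier results of these data known. All 49 were found among the 31053 genes of the count matrix. They were followed in immune cells sorted as CD45+ from mouse brain and profiled by single-cell RNA sequencing (10x Genomics, 3' counting of unique molecular identifiers, UMIs, which mark single captured RNA molecules). The study asked whether the inflammasome sensor Nlrp3 shapes the response of microglia, the resident macrophages of the brain, to amyloid pathology. Mice with and without Nlrp3 (Nlrp3 KO and WT), each with and without the APP/PS1 transgenes, were taken at 3 and 9 months of age, and those without the transgenes also at 6 months, which gave 10 libraries of 10 groups. Each library was 1 pool of the whole brains of 3 mice, 2 males and 1 female, and all mice came from 1 cross in which the groups are littermates. Nlrp3 is deleted in every cell of the Nlrp3 KO mice, so its absence is not restricted to microglia, and the APP/PS1 transgenes were made to be expressed by neurons. All cells, controls included, were dissociated in actinomycin D, which blocks transcription during the preparation. WT and Nlrp3 KO libraries without the transgenes are called non-diseased.

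Type I interferons signal through the receptor subunits Ifnar1 and Ifnar2 to the kinases Jak1 and Tyk2, which activate a complex with Stat2 and Irf9 that binds the interferon-stimulated response element in the promoters of its target genes. The targets encode antiviral effectors, RNA and DNA sensors, GTPases, ubiquitin-like and ADP-ribosylating enzymes and feedback regulators such as Usp18. In the brain, a small state of microglia that expresses these genes together is known as interferon-response microglia (IRM).

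The response element was searched in the promoters of the members (250 bases before to 50 after the start of a gene, RefSeq sequences, GRCm38.p6), of which 39 of 49 had an entry. It was spelled GAAANNGAAA, on both strands, and occurred in 24 of the 39 promoters (61.5%), against 3.99% of 27025 genes with a promoter. A second element, the gamma-activated site (spelled TTCNNNGAA), occurred in 7 of the 39 (17.9%), against 9.55% of the same 27025 genes. Below, 210 bases of 7 promoters are shown, from 180 before to 30 after the start of the gene, with the letters that match the response element in capitals. Ifit3, Isg15, Ifitm3 and Bst2 are shown because they are taken here as markers of IRM, Sp100 and Slfn2 because they passed the adjusted test for amyloid, and Gbp7 because it was the 1 member lower in APP/PS1 microglia in every pair.
Ifit3 (chr19:34583349-34583558, + strand): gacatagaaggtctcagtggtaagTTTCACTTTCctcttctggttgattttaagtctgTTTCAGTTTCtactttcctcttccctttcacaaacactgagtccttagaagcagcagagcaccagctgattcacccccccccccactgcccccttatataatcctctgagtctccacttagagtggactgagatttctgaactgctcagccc
Isg15 (chr4:156200789-156200998, - strand): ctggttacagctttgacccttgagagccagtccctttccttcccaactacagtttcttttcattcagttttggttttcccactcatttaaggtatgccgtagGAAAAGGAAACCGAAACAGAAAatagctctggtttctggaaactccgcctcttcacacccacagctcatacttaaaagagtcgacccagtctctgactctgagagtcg
Ifitm3 (chr7:141010715-141010924, - strand): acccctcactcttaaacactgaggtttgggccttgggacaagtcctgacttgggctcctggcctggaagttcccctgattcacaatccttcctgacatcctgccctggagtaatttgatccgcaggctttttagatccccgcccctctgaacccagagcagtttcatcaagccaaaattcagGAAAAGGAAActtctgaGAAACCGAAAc
Bst2 (chr8:71537443-71537652, - strand): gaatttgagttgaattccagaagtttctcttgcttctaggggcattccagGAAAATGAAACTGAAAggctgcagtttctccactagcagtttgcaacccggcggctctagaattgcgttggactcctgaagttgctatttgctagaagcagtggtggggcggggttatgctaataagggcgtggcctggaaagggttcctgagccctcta
Sp100 (chr1:85649808-85650017, + strand): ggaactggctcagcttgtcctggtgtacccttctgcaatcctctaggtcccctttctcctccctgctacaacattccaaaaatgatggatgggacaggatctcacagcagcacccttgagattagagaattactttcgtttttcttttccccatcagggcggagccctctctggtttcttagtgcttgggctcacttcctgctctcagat
Slfn2 (chr11:83064932-83065141, + strand): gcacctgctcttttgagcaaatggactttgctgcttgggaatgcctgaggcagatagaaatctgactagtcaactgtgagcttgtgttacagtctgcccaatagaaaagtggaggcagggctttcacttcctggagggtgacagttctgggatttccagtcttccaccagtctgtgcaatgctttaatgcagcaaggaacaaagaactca
Gbp7 (chr3:142530156-142530365, + strand): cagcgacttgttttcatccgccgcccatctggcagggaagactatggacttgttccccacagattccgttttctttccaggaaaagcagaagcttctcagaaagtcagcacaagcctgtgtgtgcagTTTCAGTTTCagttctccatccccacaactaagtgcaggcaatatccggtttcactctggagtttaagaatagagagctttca
In Ifit3 both matches lay on the reverse strand, whereas the 3 overlapping matches of Isg15 and the 2 each of Ifitm3 and Bst2 lay on the forward strand. Sp100 and Slfn2 held no match to the response element in this window, and Gbp7 held 1. A match describes letters only and does not show that a factor binds there.

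Microglia made up 40547 of the 45472 cells used, and they held 370671 UMIs of the 49 members, between 21904 and 73233 per library. Microglia of a library carried 9357431 to 35107144 UMIs in all, and a median microglia held 3978 to 5985 UMIs. The gene Nlrp3 was counted 418 to 1488 times in each of the 5 Nlrp3 WT libraries and 0 times in the 5 Nlrp3 KO libraries. No more than 16 cell barcodes were shared between any of the 45 pairs of libraries. Each age was 1 batch in the authors' annotation, so that batch and age cannot be told apart, while every pair of libraries compared below lies within a batch. Levels are counts per 1000000 UMIs of the same cells (CPM). They are not divided by gene length, so that they were compared between libraries and states for 1 gene, and not between genes. Reads of near-identical copies are hard to assign to 1 gene. This concerns Oas1a, the Ifit3 and Phf11 genes, the p200 family Ifi204 to Ifi213, the Schlafen genes and Gbp3 with Gbp7. The counts of these members are uncertain.

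The authors sorted microglia into 6 states, namely homeostatic microglia (HM, 31953 cells), IRM (2271), microglia in transition to disease-associated microglia (TM, 2538), a state with immediate-early genes (IEG, 2094), disease-associated microglia (DAM, 901) and proliferating microglia (PM, 790). Summed over the 49 members, HM held 1250.4 CPM (1148 to 1589 over the 10 libraries) and IRM 9730.1 (8818 to 10809.6). The other states lay between, with 1575 in IEG, 2074 in TM, 2627 in PM and 2958 in DAM. Because the states were made from these same counts, the differences between them are a description and no test was run. The DAM level came with the widest range, 1662 to 6308, and its upper end was the Nlrp3 KO library at 3 months, which held 37 DAM cells.

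All 49 members were higher in IRM than in HM, 26 of them more than 10-fold and 36 more than 5-fold, with a median ratio of 14.0. Cxcl10, a chemokine that attracts T cells, had the largest ratio, 614, with 75 UMIs in all HM cells. Ifi211, Ifi44 and Oas3 followed with 575-, 322- and 264-fold, and the 7 UMIs of Ifi211 and 6 of Oas3 in HM leave these ratios imprecise. Gbp7, a guanylate-binding protein of vacuole defence, had the smallest ratio at 1.67 and was the only member under 2-fold. The 5 members with most UMIs in HM carried 42.0% of the member UMIs of HM, and the 5 with most in IRM carried 31.6% of those of IRM.

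All cell types outside the microglia with at least 50 cells held more of these transcripts than HM did. Border-associated macrophages (BAM), which line the meninges and vessels, reached 8481 CPM (6167 to 10419.5 over 10 libraries), and over all cells pooled monocytes (Mono) stood at 9653 and plasmacytoid dendritic cells (pDC), known as strong producers of interferon, at 7933. With at least 20 cells, only 2 libraries held monocytes (7832 and 9360) and 1 held pDC (8135), so the order of these types and BAM is not settled. T cells stood at 4809 (3909 to 5687), NK cells at 2664 and B cells at 1944. The lowest of the types with at least 50 cells were neutrophils with 1765, precursors with 1823 and type 2 innate lymphoid cells (ILC2) with 1921, all above HM and IEG. Of the single members, Bst2, which tethers virus particles to the cell surface, stood at 4724 CPM in pDC against 949 in IRM. Ifitm3, which blocks virus entry, stood at 4019 in monocytes against 607 in IRM. Ifit3 instead stood at 2.15 in pDC and 58.8 in monocytes, against 387 in IRM. Sums of similar size thus came from different members. Irf7, the factor that amplifies interferon production, was highest in pDC at 272, whereas Ifit3, Isg15, Rsad2, Mx1 and Eif2ak2 were highest in IRM among the states and types with at least 100 cells.

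**Figure D1:**
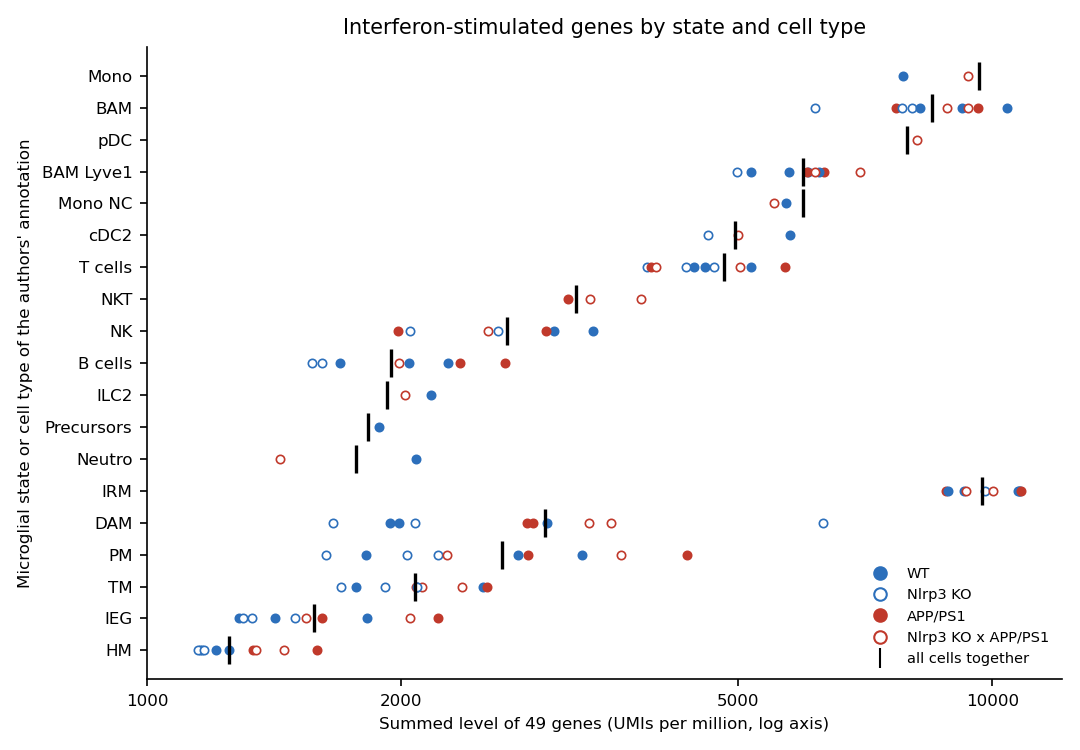
Summed level of the 49 members (CPM, log axis) in each microglial state and each other cell type of the authors' annotation with at least 50 cells. Points are libraries with at least 20 cells of the type, coloured by genotype, and the black bar is the level over all cells of the type. IRM (9730.1), monocytes (9653), BAM (8481) and pDC (7933) are highest by the level over all cells, and HM (1250.4) and IEG (1575) are lowest. Sums of similar size come from different members, and in pDC Bst2 alone stood at 4724.

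The interferons themselves were almost absent from the counts. Ifnb1 was counted 1 time in all cells, and Ifna1, Ifna2, Ifna4, Ifna5 and Ifne 0 times, with a limit of 3 counts behind each 0. Ifng, the type II interferon, was counted 2 times in microglia and 664 times in the other cells, of which 329 were in T cells. The type I receptor was present, with 15568 UMIs of Ifnar1 and 46183 of Ifnar2 in microglia. Ifnar1 stood at 81.1 CPM in HM and 77.8 in IRM, and Ifnar2 at 234.9 and 248.0, so that the receptor genes did not share the rise of the members from HM to IRM.

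The first comparison asked whether amyloid raised these genes, in 4 pairs, each matching an APP/PS1 with a non-diseased library by age and by Nlrp3 genotype. In all microglia, the summed level of the members was higher in APP/PS1 in 4 of 4 pairs, by 1.24-, 1.28-, 1.29- and 1.69-fold (mean 1.37 ± 0.212, SD, n = 4 pairs). Over the 10 libraries, with the non-diseased given as WT and Nlrp3 KO at 3, 6 and 9 months and the APP/PS1 libraries as Nlrp3 WT and KO at 3 and 9 months, the order used throughout, the sum was 1591, 1629, 1648, 1709.6, 2159 and 1696 in the non-diseased and 1965, 2086, 2782 and 2866 in the APP/PS1 libraries. The WT library at 9 months, with 2159, lay above both APP/PS1 libraries at 3 months, so the groups overlapped, and the other 5 non-diseased libraries lay between 1591 and 1709.6. In sums over a population, more cells in a state with these transcripts and more transcripts per cell cannot be told apart, so that HM were also summed alone.

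In HM alone, the summed level was 1208, 1163, 1154, 1148, 1249 and 1166 in the non-diseased and 1336, 1344, 1589 and 1451 in the APP/PS1 libraries. All 4 APP/PS1 libraries lay above all 6 non-diseased libraries, and the ratios within pairs were 1.11, 1.16, 1.27 and 1.24 (mean 1.19 ± 0.0771, SD, n = 4). Within IRM cells, the sum was higher in APP/PS1 in 1 of 4 pairs, with ratios of 0.868 to 1.01. Microglia other than IRM gave ratios of 1.16, 1.15, 1.38 and 1.63. IEG and PM were higher in APP/PS1 in 4 of 4 pairs (1.19 to 1.54 and 1.03 to 2.23), TM in 3 of 4 and DAM in 2 of 4. No test was run on these sums, and since cells with many member UMIs were placed in IRM by the clustering, the level that HM can reach is bounded.

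The share of IRM among microglia was 3.80, 3.61, 4.69, 5.14, 6.502 and 3.87 in the non-diseased and 6.58, 7.53, 8.17 and 10.0 in the APP/PS1 libraries (percent). Thus all 4 APP/PS1 libraries had a higher share than all 6 non-diseased libraries, but the interval of the lowest, Nlrp3 WT at 3 months with 6.58% (95% exact binomial interval 5.73 to 7.52) overlapped with that of the WT library at 9 months with 6.502% (5.54 to 7.58). Within pairs the share was 1.26- to 2.59-fold higher in APP/PS1 (mean 1.92 ± 0.564, SD, n = 4). IRM cells carried 23.7% to 35.4% of the member UMIs that the microglia of a library held. A count that uses no clusters, the percent of microglia with at least 10 member UMIs after every cell was thinned to 1500 UMIs, gave 2.39, 2.34, 2.72, 2.76, 4.93 and 3.16 in the non-diseased and 3.83, 4.51, 8.03 and 8.83 in the APP/PS1 libraries. Its ratio was 1.99 ± 0.558 (mean ± SD, n = 4), while without thinning the percent was 16.1 to 42.1. Intervals cover counting error only.

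**Figure D2:**
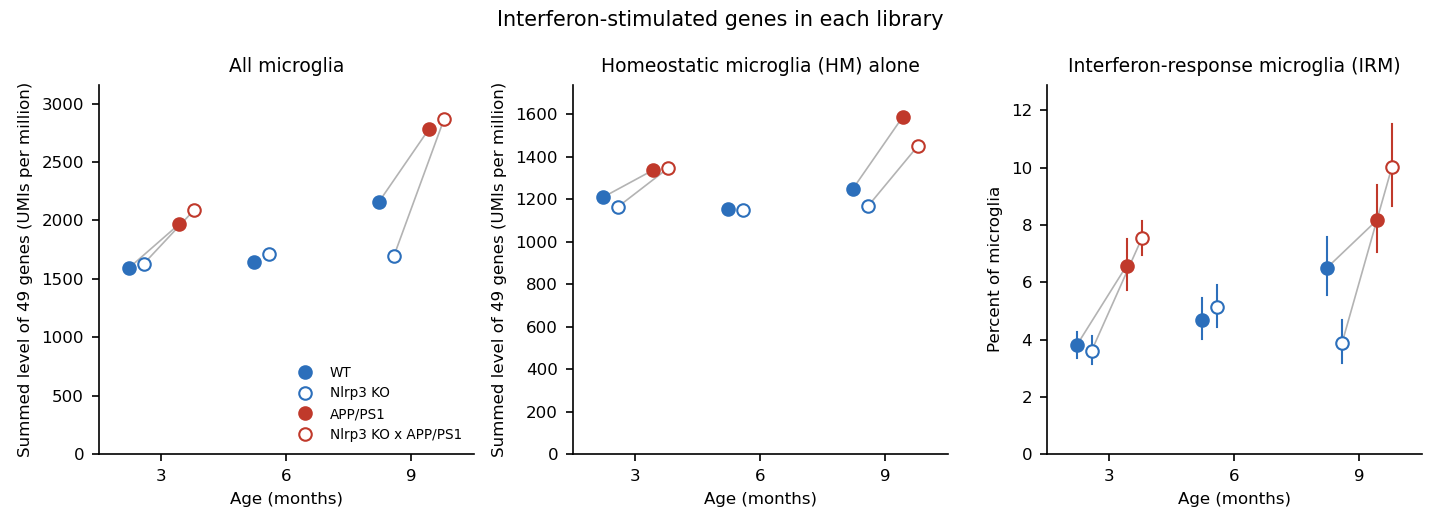
Summed level of the 49 members in all microglia (left) and in HM (middle), both in CPM, and percent of microglia in the IRM state with 95% exact binomial intervals (right), by age in months. Each point is a library of 3 pooled mice, open points are Nlrp3 KO, and grey lines join the pairs of the amyloid comparison. In all 4 pairs and all 3 plots the APP/PS1 library lies above its partner, and the WT library at 9 months (2159) stands above the other non-diseased libraries on the left.

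Gene by gene, 36 of the 49 members were higher in APP/PS1 microglia in 4 of 4 pairs, where 9.31% of all 12282 genes tested were, and 1 member was lower in all 4 pairs (8.57% of all genes). These directions use levels scaled by the TMM factors of the fit. By the CPM printed here the counts were also 36 and 1, with Oas3 in place of Ifit1. The median log2 fold change of the members was 0.42, against 0.003 over all genes. Since the members were chosen with earlier results of these data known, their difference from all genes is not independent of these data. At an unadjusted p under 0.05, 37 members were higher (5.1% of all genes) and 1 lower (2.38%), which was Gbp7. With Benjamini-Hochberg adjustment over all genes, edgeR's quasi-likelihood test left 2 members, Sp100 and Slfn2, both higher (0.057% of all genes), and 0 members passed the study's added limit of an absolute log2 fold change over 1, which 5 genes did (0.0407%). DESeq2 gave 15 members with an adjusted p under 0.05, all higher (0.415% of all genes), and 1 past both limits (0.179%). In 7 members (Ddx58, Irf9, Slfn2, Slfn5, Trim30a, Parp14 and Lgals3bp), the 4 APP/PS1 libraries lay above all 4 non-diseased libraries of these ages, which 1.34% of the 12121 genes with over 100 UMIs did.

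Sp100, a nuclear body protein that restricts viruses, stood at 23.3, 23.7, 29.3, 32.5, 39.7 and 34.5 in the non-diseased and 34.7, 36.6, 62.2 and 60.3 in the APP/PS1 libraries, with a log2 fold change of 0.68 (SE 0.0636, adjusted p = 0.0282). In Slfn2, a Schlafen protein of T cell and monocyte quiescence, the levels were 57.8, 56.9, 62.4, 57.3, 72.7 and 56.4 in the non-diseased and 84.6, 80.1, 103 and 90.9 in the APP/PS1 libraries, and its log2 fold change was 0.57 (SE 0.0581, adjusted p = 0.0282). Both were higher in 4 of 4 pairs. For Slfn2 the groups did not overlap, whereas Sp100 overlapped through the WT library at 9 months. The adjusted p of both passed the limit when the pair of the WT 9-month library was left out and missed it when any 1 of the other 3 pairs was.

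Among the antiviral effectors, 11 of 14 were higher in 4 of 4 pairs with a median log2 fold change of 0.44. Ifi27l2a, a small mitochondrial protein gene, had the largest value of the members that kept 1 sign, 1.17 (SE 0.171, adjusted p = 0.123), with levels of 55.7, 54.9, 75.2, 78.5, 151 and 90.8 in the non-diseased and 98.95, 103, 312 and 329 in the APP/PS1 libraries. Zbp1, a sensor of Z-form nucleic acid that can start necroptosis, stood at 4.24, 5.33, 5.35, 6.86, 9.17 and 4.49 in the non-diseased and 7.16, 9.43, 13.5 and 11.2 in the APP/PS1 libraries, and its log2 fold change was 0.85 (SE 0.132, adjusted p = 0.159). In both genes the WT library at 9 months was the single non-diseased library within the range of the APP/PS1 libraries. Ifit2, which binds viral RNA, stood at 8.56, 10.1, 6.47, 10.8, 16.2 and 9.37 in the non-diseased and 13.2, 19.9, 22.2 and 23.2 in the APP/PS1 libraries (log2 fold change 0.84, SE 0.137, adjusted p = 0.176). Samd9l, an inhibitor of translation, stood at 4.30, 4.98, 7.998, 8.63, 13.4 and 10.1 in the non-diseased and 6.74, 6.30, 23.1 and 24.3 in the APP/PS1 libraries (log2 fold change 0.78, SE 0.155, adjusted p = 0.257), and its 3-month APP/PS1 libraries lay below all non-diseased libraries of 6 and 9 months. The 3 effectors that did not keep 1 sign were Rsad2, Eif2ak2 and Cmpk2.

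The 5 members taken here as markers of IRM, Ifit3, Isg15, Rtp4, Ifitm3 and Bst2, were all higher in APP/PS1 microglia in 4 of 4 pairs, and none passed the adjusted test. Ifit3 stood at 19.3, 19.7, 18.9, 24.9, 41.4 and 23.4 in the non-diseased and 23.2, 33.8, 52.7 and 45.2 in the APP/PS1 libraries, with a log2 fold change of 0.60 (SE 0.120, adjusted p = 0.257). Isg15, the ubiquitin-like modifier, stood at 23.0, 22.2, 26.5, 34.2, 42.0 and 28.03 in the non-diseased and 27.3, 35.3, 46.0 and 46.0 in the APP/PS1 libraries (log2 fold change 0.46, SE 0.107, adjusted p = 0.372). In both, the WT library at 9 months was above both APP/PS1 libraries at 3 months, and 2 Nlrp3 KO libraries were above the lower of these. Rtp4, a chaperone of receptors that also limits interferon signalling, stood at 26.8, 21.2, 23.8, 27.4, 36.7 and 26.2 in the non-diseased and 36.0, 41.8, 51.7 and 53.1 in the APP/PS1 libraries (log2 fold change 0.74, SE 0.114, adjusted p = 0.159). Ifitm3 stood at 39.5, 40.6, 54.5, 55.6, 97.6 and 55.5 in the non-diseased and 59.1, 78.5, 132 and 143 in the APP/PS1 libraries (log2 fold change 0.85, SE 0.146, adjusted p = 0.198), and Bst2 at 215, 206, 224, 238, 273 and 204 in the non-diseased and 243, 280.4, 332 and 343 in the APP/PS1 libraries (log2 fold change 0.43, SE 0.100, adjusted p = 0.372). In these 3 genes the WT library at 9 months alone reached into the range of the APP/PS1 libraries.

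The oligoadenylate synthetases, which make the messenger that activates RNase L, had a median log2 fold change of 0.92, and 3 of 4 were higher in every pair. Oasl2 stood at 10.2, 8.30, 10.5, 10.5, 22.8 and 13.2 in the non-diseased and 13.3, 17.9, 34.7 and 45.6 in the APP/PS1 libraries (log2 fold change 0.98, SE 0.210, adjusted p = 0.328), Oas1a at 3.43, 2.40, 3.06, 3.37, 5.38 and 3.87 in the non-diseased and 5.49, 4.47, 6.34 and 11.3 in the APP/PS1 libraries (log2 fold change 0.85, SE 0.202, adjusted p = 0.372). Oas2, with 287 UMIs in all microglia, stood at 0.866, 0.752, 0.941, 1.05, 2.20 and 1.084 in the non-diseased and 1.57, 1.54, 2.45 and 5.66 in the APP/PS1 libraries (log2 fold change 1.11, SE 0.339, adjusted p = 0.512), and the Nlrp3 KO APP/PS1 library at 9 months exceeded all others. Ifi44, also sparse with 188 UMIs, stood at 0.340, 0.465, 0.529, 0.829, 1.76 and 1.01 in the non-diseased and 0.731, 0.826, 2.08 and 4.38 in the APP/PS1 libraries (log2 fold change 1.10, SE 0.337, adjusted p = 0.512), with the same library at the top.

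The 3 Schlafen genes, the 4 genes of transcription and feedback (Irf7, Irf9, Stat2 and Usp18) and the 4 genes of ubiquitin and ADP-ribose transfer (Trim30a, Trim30d, Herc6 and Parp14) were higher in every pair. Slfn5, which represses transcription, stood at 11.01, 11.5, 11.4, 11.6, 13.2 and 13.1 in the non-diseased and 14.8, 19.9, 23.6 and 27.0 in the APP/PS1 libraries (log2 fold change 0.78, SE 0.111, adjusted p = 0.123), and all APP/PS1 libraries lay above all non-diseased libraries. In Usp18, which removes Isg15 from proteins and dampens the receptor, the log2 fold change was 0.64 (SE 0.152, adjusted p = 0.372). Of the p200 genes, which hold DNA sensors, Ifi204 and Ifi209 were higher in every pair and Ifi211 and Ifi213 in 3 of 4. Of the RNA sensors, Ddx58 (RIG-I) and Dhx58 were higher in every pair, by 0.18 and 0.33 on the log2 scale, and Ifih1 (MDA5) in 3 of 4.

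The 4 GTPases had no common direction, with 0 higher and 1 lower in every pair and a median log2 fold change of -0.08. Gbp7 stood at 80.0, 85.3, 64.8, 71.5, 77.3 and 81.8 in the non-diseased and 76.6, 80.6, 63.7 and 63.8 in the APP/PS1 libraries and was lower in APP/PS1 in 4 of 4 pairs, with a log2 fold change of -0.17 (SE 0.0521, adjusted p = 0.512). Its 3-month APP/PS1 libraries lay within the non-diseased range, while both at 9 months lay below all non-diseased libraries. Gbp2, Gbp3 and Irgm1 had log2 fold changes of -0.18, 0.02 and 0.22 with mixed signs.

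Of the 51 pathway genes listed besides the members, 40 could be tested, 6 were higher (against 9.31% of all genes) and 7 lower (8.57%) in every pair, and their median log2 fold change was 0.01. The RNA-editing enzyme Adar was higher in every pair with an unadjusted p under 0.05, and its log2 fold change was 0.24 (SE 0.0790, adjusted p = 0.576). Receptors, signalling genes and inducers such as the nucleic acid sensors had medians of -0.04, -0.01 and -0.02. In HM, 35 pathway genes could be tested, 6 were higher (7.53% of all genes) and 2 lower (7.48%) in every pair, and Irgm2 was higher in every pair with an unadjusted p under 0.05 and a log2 fold change of 0.16 (SE 0.0675, adjusted p = 0.900).

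**Figure D3:**
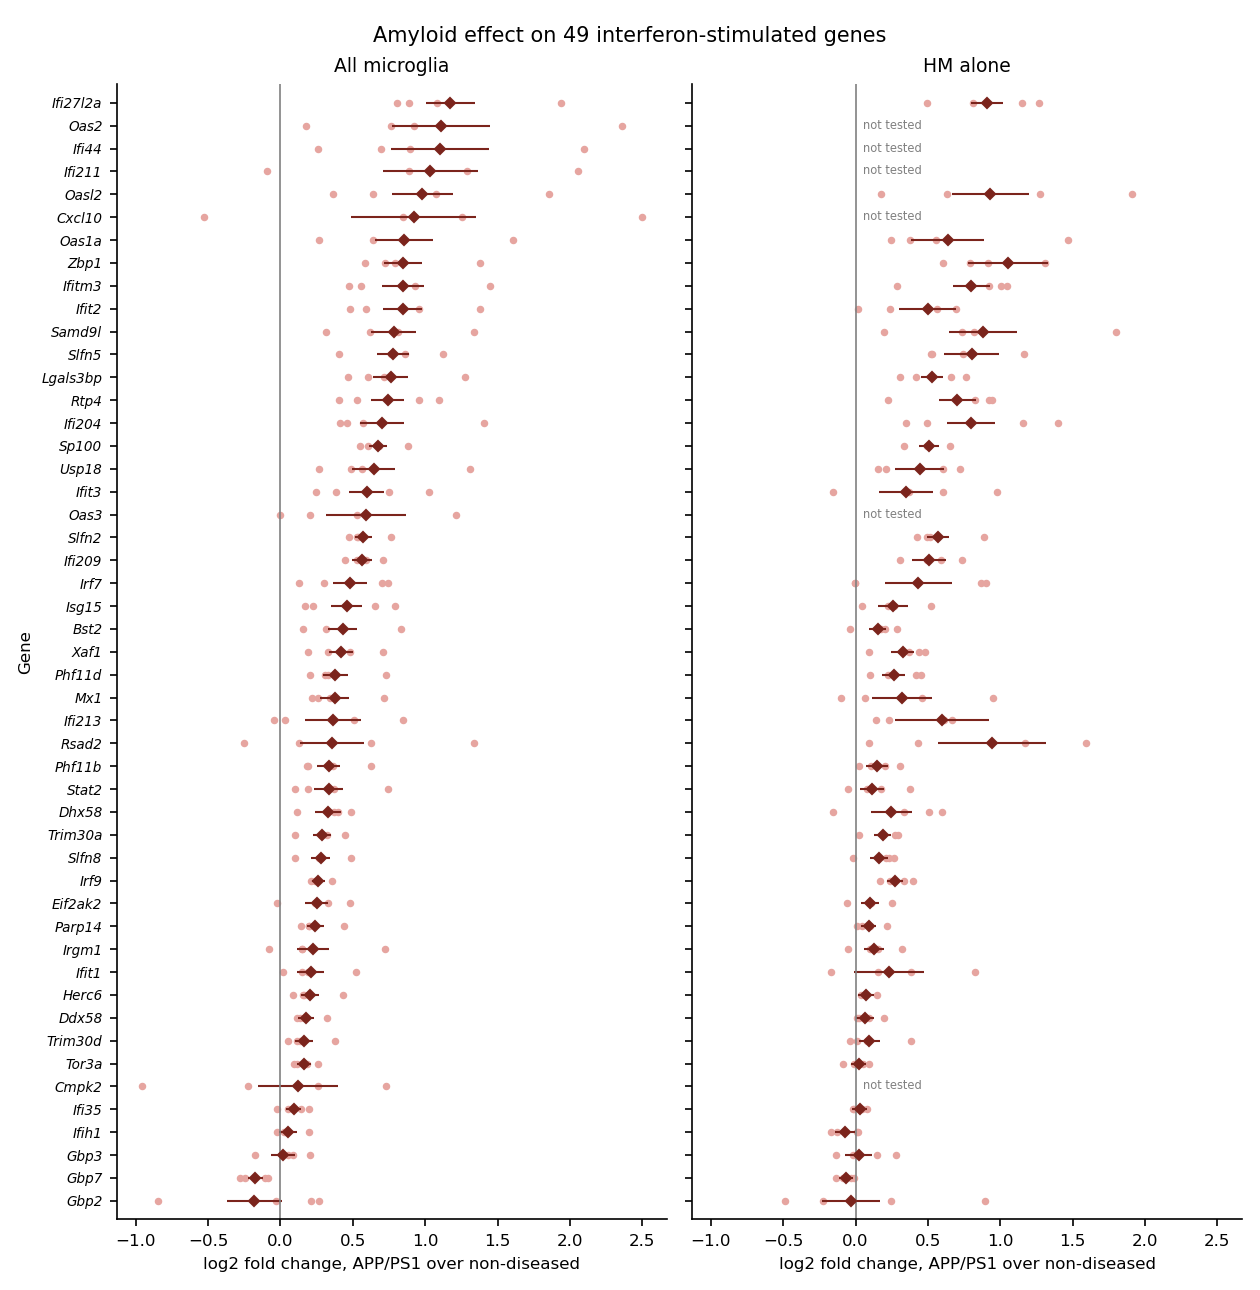
log2 fold change of APP/PS1 over non-diseased microglia for the 49 members in all microglia (left) and for the 43 members tested in HM alone (right). Diamonds with bars are the fitted values with their standard errors over 4 pairs, and pale points are the 4 pairs. Most diamonds lie to the right of 0 in both plots, Gbp7 and Gbp2 lie to the left in both, and Ifih1 lies to the left in HM.

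In HM alone, 43 members could be tested, since Cmpk2, Oas2, Oas3, Ifi211, Ifi44 and Cxcl10 were too sparse. Of the 43, 26 were higher in APP/PS1 in 4 of 4 pairs (7.53% of the 11887 genes tested) and 1, Gbp7, was lower in all 4 (7.48%), though by CPM it was lower in 3. After the cells were thinned to equal depth, 14 were higher in every pair. The share of all genes after thinning is not given, so the drop from 26 cannot be set against that of other genes. At an unadjusted p under 0.05, 23 were higher (2.85%) and 0 lower (1.72%), and the median log2 fold change was 0.27, against 0.004 over all genes. With adjustment, edgeR left 0 members and 0 genes in all (0.0%), and DESeq2 left 6 members, all higher, of 9 genes in all (0.0757%), and 0 past both limits. The smallest adjusted p was that of Ifi27l2a. Without any overlap between the 4 APP/PS1 and the 4 non-diseased libraries of their ages were 9 members (Zbp1, Ddx58, Irf9, Slfn2, Slfn5, Trim30a, Rtp4, Phf11d and Lgals3bp), against 1.22% of 11671 genes.

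Ifi27l2a in HM stood at 23.6, 21.9, 25.8, 22.6, 37.4 and 29.7 in the non-diseased and 33.9, 39.1, 90.7 and 65.0 in the APP/PS1 libraries, with a log2 fold change of 0.91 (SE 0.113, adjusted p = 0.120). Ifitm3 in HM stood at 11.1, 8.73, 11.6, 11.1, 15.4 and 12.3 in the non-diseased and 13.8, 18.5, 29.4 and 24.4 in the APP/PS1 libraries (log2 fold change 0.80, SE 0.130, adjusted p = 0.242), and Rtp4 at 12.8, 9.68, 9.91, 12.1, 13.3 and 11.6 in the non-diseased and 15.3, 18.8, 23.8 and 22.0 in the APP/PS1 libraries (log2 fold change 0.70, SE 0.127, adjusted p = 0.465). In all 3 genes both APP/PS1 libraries at 9 months stood above every other library. Slfn2 stood at 41.7, 35.5, 37.8, 34.4, 38.8 and 37.0 in the non-diseased and 56.9, 51.7, 72.2 and 51.3 in the APP/PS1 libraries (log2 fold change 0.57, SE 0.0756, adjusted p = 0.136), with no overlap between the groups. Sp100 stood at 15.7, 15.9, 17.3, 18.8, 22.8 and 22.3 in the non-diseased and 22.6, 23.0, 36.0 and 27.6 in the APP/PS1 libraries (log2 fold change 0.51, SE 0.0698, adjusted p = 0.136). Its lowest APP/PS1 value lay just under that of the WT library at 9 months.

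Other members with large differences in HM rested on few counts. Zbp1 had 112 UMIs in all HM and stood at 0.578, 0.519, 0.762, 0.538, 0.605 and 0.407 in the non-diseased and 1.23, 1.01, 1.70 and 0.672 in the APP/PS1 libraries, with a log2 fold change of 1.05 (SE 0.277, adjusted p = 0.900). Rsad2, the enzyme viperin, had 80 UMIs and stood at 0.433, 0.303, 0.152, 0.384, 0.363 and 0.814 in the non-diseased and 0.479, 0.863, 1.36 and 1.12 in the APP/PS1 libraries (log2 fold change 0.94, SE 0.371, adjusted p = 0.900). The order of libraries for such genes is set by a handful of molecules. The highest values of both genes lay in APP/PS1 libraries, and the fit kept only genes with enough counts. Both may thus have entered the test only through the group where they were high. They are among the members counted above as higher in every pair, and are no support for that count. Oasl2 stood at 1.77, 1.38, 1.30, 1.15, 1.57 and 2.95 in the non-diseased and 2.05, 2.25, 6.29 and 7.17 in the APP/PS1 libraries (log2 fold change 0.93, SE 0.266, adjusted p = 0.900), and Oas1a at 1.63, 0.994, 1.22, 1.54, 1.45 and 1.73 in the non-diseased and 1.98, 1.35, 2.21 and 4.93 in the APP/PS1 libraries (log2 fold change 0.64, SE 0.252, adjusted p = 0.900). In both genes the 9-month APP/PS1 libraries were above the rest, and for Oasl2 the 3-month ones lay within the range of the non-diseased libraries.

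Samd9l in HM stood at 2.56, 2.07, 3.35, 3.38, 3.51 and 3.97 in the non-diseased and 3.01, 3.602, 12.6 and 6.95 in the APP/PS1 libraries (log2 fold change 0.88, SE 0.233, adjusted p = 0.900). Ifi204 stood at 5.92, 7.48, 7.70, 7.60, 9.56 and 8.85 in the non-diseased and 7.73, 10.8, 21.6 and 23.1 in the APP/PS1 libraries (log2 fold change 0.80, SE 0.166, adjusted p = 0.763) and Slfn5 at 2.20, 1.30, 1.83, 1.69, 2.42 and 2.14 in the non-diseased and 3.28, 3.11, 3.57 and 3.58 in the APP/PS1 libraries (log2 fold change 0.80, SE 0.192, adjusted p = 0.900). Slfn5 did not overlap between the groups, and Ifi204 did. Of the remaining IRM markers, Ifit3 stood at 3.54, 3.03, 3.202, 3.53, 5.08 and 2.14 in the non-diseased and 3.22, 4.01, 7.82 and 4.26 in the APP/PS1 libraries (log2 fold change 0.35, SE 0.185, adjusted p = 0.900). Isg15 stood at 6.97, 8.08, 8.61, 8.22, 7.62 and 10.2 in the non-diseased and 8.55, 9.64, 11.04 and 10.3 in the APP/PS1 libraries (log2 fold change 0.26, SE 0.104, adjusted p = 0.900), and Bst2 at 172, 164, 165, 179, 179 and 152 in the non-diseased and 171, 192, 203 and 182 in the APP/PS1 libraries (log2 fold change 0.15, SE 0.0597, adjusted p = 0.900). These 3 overlapped between the groups, and Ifit3 and Bst2 were lower in APP/PS1 than in WT at 3 months.

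When IRM cells were left out of the microglia and all other states kept, 29 of 48 members tested were higher in 4 of 4 pairs (9.06% of 12256 genes), with a median log2 fold change of 0.47, and 0 passed the adjusted test in edgeR (30 higher at an unadjusted p under 0.05, 4.97% of genes). The make-up of these microglia moved with amyloid as well. DAM were 11.7% and 11.5% of the microglia of the APP/PS1 libraries at 9 months, against 2.34% and 3.79% in their non-diseased partners.

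Markers of other cells in the microglial sums moved with amyloid too, at low levels. The summed level of 4 monocyte markers was 5.94 to 8.21 CPM in non-diseased and 8.10 to 19.8 in APP/PS1 microglia, higher in 4 of 4 pairs and with 0 markers absent. The 5 T cell markers summed to 0.322 to 0.706 and 0.470 to 1.54 (4 of 4 pairs), the 4 NK cell markers to 0.155 to 0.394 and 0.575 to 0.911 (4 of 4) and the 5 BAM markers to 4.49 to 8.30 and 7.78 to 14.0 (3 of 4). The list of pDC markers, which holds the member Bst2, was higher in 4 of 4 pairs. In HM alone the monocyte markers summed to 5.20 to 7.22 in non-diseased and 5.61 to 9.68 in APP/PS1 libraries and were higher in 2 of 4 pairs, the T cell and BAM markers in 3 of 4 each and the NK cell markers in 4 of 4. The percent of mitochondrial UMIs in HM was 2.95 to 3.46 in the 4 non-diseased partners and 2.25 to 3.28 in APP/PS1, lower in 4 of 4 pairs. The part of these cells and of RNA quality in the result was not tested.

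Whether the amyloid effect differed between ages was tested with an interaction term, on 2 pairs per age. Of the 49 members, 0 passed the adjusted test in edgeR (smallest adjusted p 0.880) or in DESeq2, and 4 had an unadjusted p under 0.05 (3.32% of genes in this direction), namely Ifi27l2a, Samd9l, Lgals3bp and Gbp2, all with the more positive effect at 9 months. Without the pair of the WT library at 9 months, 2 members passed both limits (0.477% of 12358 genes), but this left 1 pair at 9 months, which was assumed to vary like the pairs at 3 months.

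The second comparison asked whether loss of Nlrp3 changed these genes, in 5 pairs matched by age and by the presence of the transgenes, 3 non-diseased and 2 APP/PS1. It uses the libraries of the amyloid comparison again. The summed level of the members in microglia was 1.02-fold (3 months), 1.04-fold (6 months) and 0.786-fold (9 months) in the non-diseased pairs and 1.06- and 1.03-fold in the APP/PS1 pairs at 3 and 9 months. In HM the ratios were 0.962, 0.995, 0.934, 1.01 and 0.913, and the ratios of the IRM share were 0.952, 1.10, 0.595, 1.14 and 1.23, all in the same order. In all microglia 4 of 5 ratios lay between 1.02 and 1.06, and the non-diseased pair at 9 months, with the high WT library, lay apart from them.

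In all microglia, 49 members were among the 12383 genes tested, and 0 passed both limits (3 genes did, 0.0242%), 0 passed the adjusted p alone in edgeR or DESeq2, and 1 was higher (2.47%) and 1 lower (2.16%) at an unadjusted p under 0.05. The median log2 fold change was 0.007, as over all genes, and its sign changed between settings. In the same direction in 5 of 5 pairs were 1 member that was higher (3.83% of all genes) and 2 that were lower (3.55%). Gbp7 was the higher one at 0.09 (SE 0.0365, adjusted p = 0.903), and Slfn2 (log2 fold change -0.14, SE 0.0522, adjusted p = 0.903) and Irf9 (log2 fold change -0.04, SE 0.0383, adjusted p = 0.920) were the lower ones, though by CPM Irf9 was lower in 4 of 5. Irf9, which gives the interferon complex its DNA binding, stood at 47.0, 48.3, 48.3, 56.9 and 55.7 in the Nlrp3 WT and 47.0, 47.1, 44.3, 55.3 and 53.6 in the Nlrp3 KO libraries (3, 6 and 9 months non-diseased, then 3 and 9 months APP/PS1). The widest gap within a pair was that of the non-diseased libraries at 9 months.

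In the non-diseased pair at 9 months, 2 of 49 members were higher in Nlrp3 KO, with a median log2 ratio of -0.41, whereas the medians of the other pairs were 0.03, 0.11, 0.09 and 0.06. Rsad2 had the largest gap there, with 17.99 CPM in WT and 4.10 in Nlrp3 KO. Without this pair, 14 members were higher in Nlrp3 KO in all 4 remaining pairs (7.92% of the 12378 genes tested), 15 were higher at an unadjusted p under 0.05 (3.36%), the median was 0.09, and 0 passed the adjusted test. In all microglia this single pair thus decided the count of members with 1 sign. It was singled out by the members' own values, so the counts without it are a description. In HM without this pair, Gbp7, Gbp3 and Phf11b were higher in all 4 remaining pairs and Zbp1, Slfn8, Slfn2 and Parp14 were lower. The share of all genes is not given for HM.

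**Figure D4:**
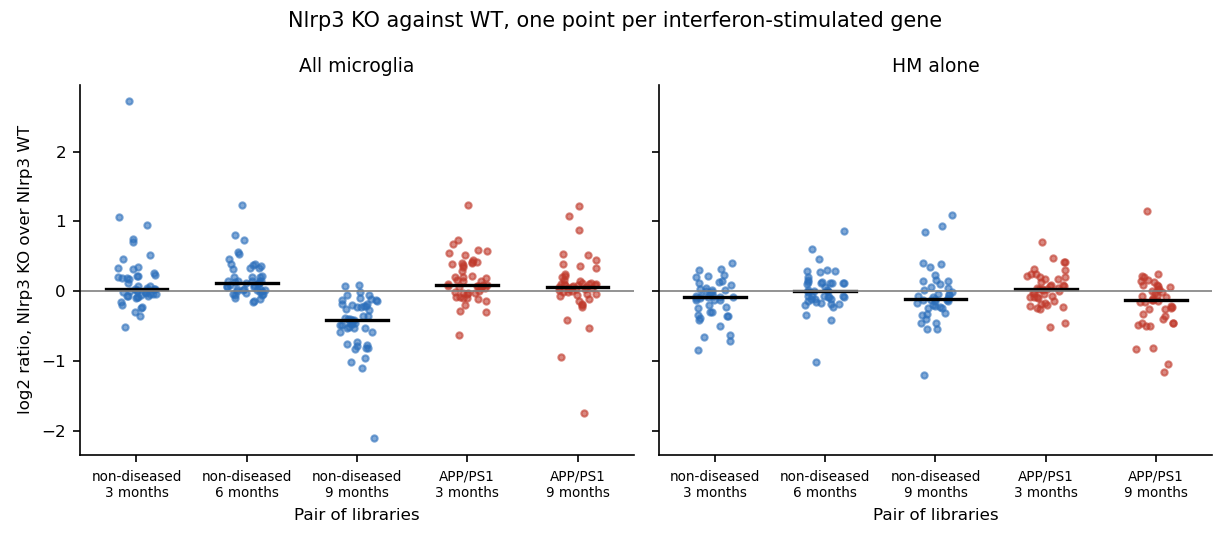
log2 ratio of Nlrp3 KO over Nlrp3 WT for each member in each of the 5 pairs of libraries, in all microglia (left, 49 members) and in HM (right, 43 members). Points are members, black lines are medians, blue pairs are non-diseased and red pairs APP/PS1. The non-diseased pair at 9 months has a median of -0.41 on the left and -0.11 on the right.

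In HM, 0 of 43 members passed the adjusted test in edgeR or DESeq2 or both limits (4 of 11970 genes did, 0.0334%), and 4 were lower (2.36%) and 0 higher (2.21%) at an unadjusted p under 0.05. The median was -0.05. Gbp7 was higher in 5 of 5 pairs (4.15% of all genes) and 4 members were lower in 5 of 5 (3.58%). Slfn2 stood at 41.7, 37.8, 38.8, 56.9 and 72.2 in the Nlrp3 WT and 35.5, 34.4, 37.0, 51.7 and 51.3 in the Nlrp3 KO libraries (log2 fold change -0.20, SE 0.0600, adjusted p = 0.919), Zbp1 at 0.578, 0.762, 0.605, 1.23 and 1.70 in the Nlrp3 WT and 0.519, 0.538, 0.407, 1.01 and 0.672 in the Nlrp3 KO libraries (log2 fold change -0.43, SE 0.253, adjusted p = 0.919). Parp14, an ADP-ribosyltransferase, stood at 81.1, 70.7, 72.7, 83.1 and 85.1 in the Nlrp3 WT and 74.6, 67.7, 68.7, 81.3 and 69.5 in the Nlrp3 KO libraries (log2 fold change -0.11, SE 0.0474, adjusted p = 0.919), and Slfn8 at 62.2, 61.0, 66.9, 74.2 and 80.7 in the Nlrp3 WT and 62.2, 57.4, 65.4, 62.5 and 74.2 in the Nlrp3 KO libraries (log2 fold change -0.09, SE 0.0487, adjusted p = 0.919). Gbp7 stood at 81.0, 68.7, 78.8, 77.6 and 72.0 in the Nlrp3 WT and 82.2, 74.3, 81.8, 82.7 and 78.6 in the Nlrp3 KO libraries (log2 fold change 0.08, SE 0.0431, adjusted p = 0.919). For Slfn2 the gap was widest in the APP/PS1 pair at 9 months, and Zbp1 rests on the 112 UMIs given above.

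Among the pathway genes, 1 stood out. Irgm2, an immunity-related GTPase known mainly as a target of interferon gamma, stood at 35.3, 29.3, 24.0, 36.5 and 27.1 in the Nlrp3 WT and 17.5, 16.6, 14.0, 19.5 and 14.4 in the Nlrp3 KO libraries in all microglia, lower in 5 of 5 pairs with a log2 fold change of -0.88 (SE 0.0536, adjusted p = 5.9e-04). In HM the log2 fold change was -0.99 (SE 0.0721, adjusted p = 9.8e-04), just under the limit on size. Irgm2 lies on chromosome 11 (58199618 to 58222782, GRCm38), 1.32 Mb from Nlrp3 (59541568 to 59566956). Its relative Irgm1, a member, lies 10.7 Mb from Nlrp3 and was lower in 4 of 5 pairs, with -0.10 (SE 0.0946, adjusted p = 0.927) in all microglia and -0.18 (SE 0.0643, adjusted p = 0.919) in HM. Of the 8 members on chromosome 11, none passed the test. The adaptor Ticam2 (log2 fold change -0.13, SE 0.0504, adjusted p = 0.903) in all microglia, and Igtp (log2 fold change -0.20, SE 0.0570, adjusted p = 0.919) in HM, were lower in 5 of 5 pairs with an unadjusted p under 0.05.

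The difference of the Nlrp3 effect between APP/PS1 and non-diseased pairs was not detectable for any member, with 0 past the adjusted test in edgeR or DESeq2 and 2 with a more positive effect in APP/PS1 at an unadjusted p under 0.05, Oasl2 and Slfn5 (1.31% of all genes).

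The last question was whether amyloid moved these genes in other immune cells, of which BAM and T cells had at least 20 cells in every library. In BAM (41 to 128 cells per library), 0 of 49 members passed both limits (0.27% of 5928 genes did), 0 passed the adjusted p in edgeR, 1 was higher (3.34%) and 6 lower (4.05%) at an unadjusted p under 0.05, 0 were higher in 4 of 4 pairs (7.76%) and 5 were lower (7.56%), namely Ifi211, Oas1a, Usp18, Bst2 and Ifi35. The median log2 fold change was -0.14. DESeq2 was not run on these cell types.

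The amyloid effects of BAM and microglia were then set against each other in 1 fit, a test added after both had been seen. The effect was lower in BAM for 14 of 49 members at an adjusted p under 0.05 (52 of 5856 genes in either direction, 0.888%), for 6 with a difference over 1 on the log2 scale (0.546%), for 26 at an unadjusted p under 0.05 (5.69%) and for 30 in 4 of 4 pairs (9.82%). The median difference was -0.57, against -0.03 over all genes, and 0 members had a higher effect in BAM with an adjusted p under 0.05. Ifi27l2a stood in BAM at 1432, 1238, 1274, 1096, 1967 and 1282 in the non-diseased and 1616, 1409, 2113 and 1217 in the APP/PS1 libraries, and the difference of the effects was -1.12 (SE 0.148, adjusted p = 2.3e-05). Ifitm3 stood in BAM at 1637, 1391, 1615, 1569, 1535 and 953 in the non-diseased and 1402, 1728, 1440.2 and 1249 in the APP/PS1 libraries, with a difference of -0.81 (SE 0.117, adjusted p = 8.6e-05). In both genes the 2 groups of BAM overlapped over most of their range. In this fit the SE of Ifi27l2a was below the 0.171 of its amyloid effect in microglia alone. The p-values of the fit thus do not measure only how the difference varied over the 4 pairs.

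Ifit3 stood in BAM at 141, 176, 105, 43.5, 223 and 100.1 in the non-diseased and 70.6, 127, 146 and 153 in the APP/PS1 libraries, with a difference of -1.07 (SE 0.176, adjusted p = 5.5e-04), and Bst2 at 1046, 928, 830.3, 858, 1212 and 823 in the non-diseased and 773, 910.3, 1059 and 773 in the APP/PS1 libraries, with -0.67 (SE 0.116, adjusted p = 7.7e-04). The other members past the adjusted p were Ifi204, Zbp1, Oasl2, Usp18, Slfn5, Slfn2, Lgals3bp, Rtp4, Parp14 and Ifit2. With HM in place of all microglia, 5 members passed (0.483% of all genes did), and with library size alone 8 (0.666%). Leaving out the pair of the WT library at 3 months left 7 (0.53%), that of the Nlrp3 KO library at 9 months 7 (0.537%) and that of the WT library at 9 months 9 (0.481%).

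**Figure D5:**
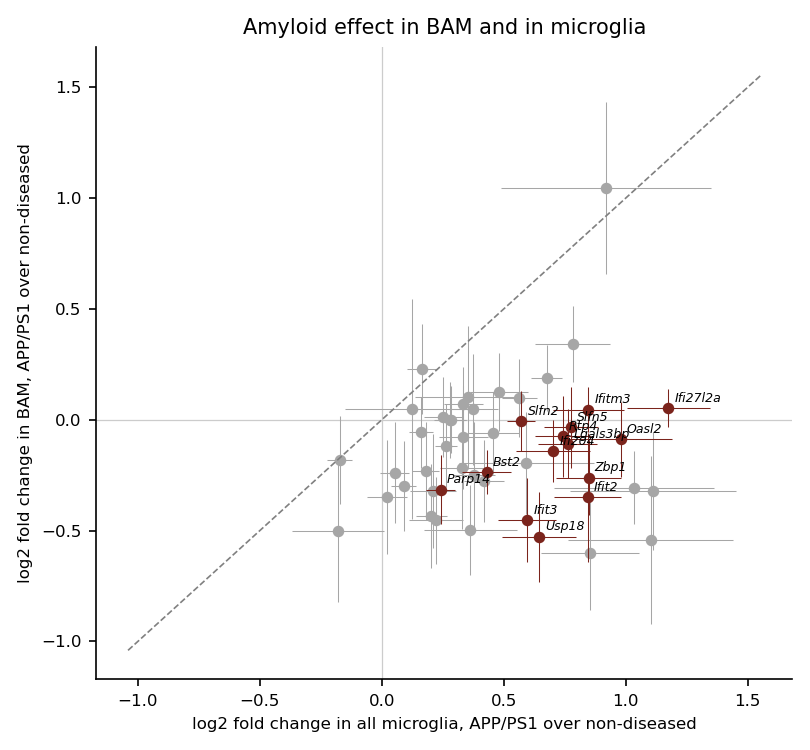
log2 fold change of APP/PS1 over non-diseased in BAM (vertical axis) against all microglia (horizontal axis) for the 49 members, with standard errors over 4 pairs as bars. Dark points with names are the 14 members whose effects differed at an adjusted p under 0.05, and the dashed line marks equal effects. All dark points lie below the line.

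In T cells (27 to 504 cells per library), 42 members were among the 6174 genes tested, and 1, Cxcl10, passed both limits (0.162% of genes). It was counted 4, 0, 125, 24, 3 and 2 times in the non-diseased and 0, 171, 520 and 96 times in the APP/PS1 libraries, higher in 3 of 4 pairs, with a log2 fold change of 4.07 (SE 0.645, adjusted p = 0.0232). Few cells carried these counts, with the 171 UMIs in 5 of 98 T cells, the 520 in 28 of 504 and the 96 in 12 of 278. The pair of WT and APP/PS1 at 3 months went the other way, with 4 and 0 counts. Leaving out the pair of the Nlrp3 KO library at 3 months, the WT library at 9 months or the Nlrp3 KO library at 9 months ended the call. Of the 42 members, 10 were higher in T cells in 4 of 4 pairs (8.24% of all genes; 8 by CPM), Ifit1, Ifit3 and Ifih1 among them, 10 were higher at an unadjusted p under 0.05 (3.47%), and 1, Ifi27l2a, was lower in all 4 (7.09%; 3 members by CPM). The median was 0.24.

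Across the 10 libraries the members moved with each other. Spearman's rho of a member with the sum of the other 48 in all microglia had a median of 0.84 over the members, was over 0.7 for 38 and negative for Gbp7 (-0.58) and Irgm1 (-0.10). In HM the median was 0.67, with 22 members over 0.7 and 6 negative. These are descriptions over 10 libraries that share batch, depth and the make-up of states.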

How the data were processed

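CD45+ cells of 10 libraries were analysed from the UMI count matrix and the cell annotations deposited by the authors. The authors mapped the reads to mm10 with STAR, counted UMIs with Cell Ranger, removed outlier cells (beyond 3 median absolute deviations in their total, gene number or mitochondrial share), corrected the embedding with harmony and clustered the cells. The deposited annotation also gives each cell a percent of mitochondrial UMIs, a fraction of ribosomal UMIs and a doublet score whose tool is not given in the sources used here. Cells were assigned to libraries by the condition name. A total of 6897 of 52369 cells carried 2 names that match no sample and were not used. No doublet caller was run, and a doublet score of at most 0.5 was tried as an alternative.

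Counts were summed per library and state or cell type (Python 3.11.15, numpy 2.4.6, pandas 2.3.3, scipy 1.17.1). Sums were fitted with edgeR 4.0.16 in R 4.3.3 (quasi-likelihood test, TMM factors, filterByExpr, Benjamini-Hochberg adjustment over all genes tested), with the pair of libraries as a block, which is 4 pairs of the same age and Nlrp3 genotype for amyloid and 5 pairs of the same age and background for Nlrp3. The pairs share age, batch and genotype by the labels, and no replicate numbers exist. A call needed the limits of the study, which are 0.05 for the adjusted p and 1 for the size of the log2 fold change. Each group is 1 library of 3 pooled mice, so p-values measure the spread between pairs of libraries only. The fit of BAM with microglia is an exception, since it takes both sets of cells from the same libraries. An exact test over 4 pairs could not go below p = 0.125. Cell types other than microglia were fitted where every library held at least 20 cells. To count cells with at least 10 member UMIs, each cell was thinned to 1500 UMIs, which left out 0 cells. Intervals are exact 95% binomial intervals and cover counting error only.

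The 49 members, the pathway list, the marker lists and the tests were chosen with earlier results of these data known. Values in every library are given for 5 members taken as IRM markers (Ifit3, Isg15, Rtp4, Ifitm3 and Bst2), for the 10 members of 1 sign in every pair of a comparison whose log2 fold change was largest in size and for members past a limit. Other genes are named as examples of their role. Each kind of fit was first tested on simulated data. DESeq2 1.42.0, its size factors, library size alone, no filter, no block, additive covariates, the doublet limit, thinning, the Xist level as covariate, microglia without IRM, HM shared by both annotations and leaving out each pair were tried as alternatives. The comparison of BAM with microglia, its alternatives and the leave-one-out fits of the interactions, other cell types and IRM share were chosen after seeing the data. Results for 1 gene of the pathway list are not reported here.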

Additional observations from a re-analysis of the deposited data

Results flagged for a closer look

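Of 96 sets of 4 to 6 libraries or pairs, 13 held a value far from the others by Dixon's criterion at 95%. Chance gives this in about 1 in 20 independent sets, but these sets share libraries and members that move together. Of the 13, 8 were values of the WT library at 9 months. In all microglia this library stood apart from the other non-diseased libraries in the summed level of the members (2159 CPM, nearest 1709.6) and in the percent of thinned microglia with at least 10 member UMIs (4.93, nearest 3.16). It did so too for Ifi27l2a (151, nearest 90.8), Ifit3 (41.4, nearest 24.9), Ifitm3 (97.6, nearest 55.6), Oas2 (2.20, nearest 1.084), Oasl2 (22.8, nearest 13.2) and Slfn2 (72.7, nearest 62.4). In HM alone its summed level, 1249, was the highest of the non-diseased libraries and did not stand apart.

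The Nlrp3 KO library at 9 months was low for Irf9 in all microglia (44.3 CPM, nearest 47.0) and high for Oasl2 in HM (2.95, nearest 1.77). Among the amyloid pairs, that of the Nlrp3 KO libraries at 9 months had the largest median log2 ratio of the members in all microglia (0.74, nearest 0.33), and among the Nlrp3 pairs the non-diseased pair at 9 months had the lowest (-0.41, nearest 0.03). Both contain a library named above or share its age. The DAM of the Nlrp3 KO library at 3 months, 37 cells, had a summed level of 6308 CPM (nearest 2976).

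The amyloid effect differed between BAM and microglia for 14 of 49 members at an adjusted p under 0.05 (0.888% of 5856 genes), by a test of the difference itself with edgeR. It was lower in BAM for all 14. The test was added after both effects had been seen, and its p-values do not measure the spread between pairs alone. The members past the limit were 5 with HM in place of all microglia and 7 to 15 with 1 pair left out.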

How the results depend on the processing

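No result changed its direction past a limit. The number of members past both limits for amyloid in all microglia, 0, became 2 with the adjusted p alone, and 1 with DESeq2, with library size alone and with thinned cells. It stayed at 0 when any pair was left out (0 to 0). In HM it was 0 to 2 when 1 pair was left out, 2 without the pair of the WT library at 3 months. Members higher in every pair numbered 29 (without IRM cells, 9.06% of all genes) to 39 in all microglia over the alternatives. In HM they numbered 14 (thinned cells) to 26. When 1 pair was left out they numbered 36 to 40 and 26 to 30. A count over fewer pairs can hardly fall, so the last 2 ranges do not show stability. Shares of all genes are not given for the other alternatives, and they too move with the number of pairs. The median log2 fold change was 0.41 to 0.47 and 0.21 to 0.32 over the alternatives, and 0.31 to 0.50 and 0.21 to 0.31 with 1 pair left out. Without IRM cells the adjusted p of Sp100 and Slfn2 missed the limit (0.0771 for both), with log2 fold changes of 0.63 and 0.57 against 0.68 and 0.57 with them.

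Without the block by pair, 36 members were still higher in every pair in all microglia, since that count does not use the block, but 0 had an adjusted p under 0.05, and the adjusted p of both Sp100 and Slfn2 was 0.9999. In HM and for Nlrp3 the fit without the block left 0 members past both limits as well.

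Members of 1 sign in every Nlrp3 pair, 3 in all microglia, were 5 without IRM cells and 3 to 16 with 1 pair left out (16 without the non-diseased pair at 9 months, 6 without the APP/PS1 pair at 9 months). In HM they were 5 to 9, with 8 without the APP/PS1 pair at 3 months, 8 without the pair at 6 months and 9 without the APP/PS1 pair at 9 months. Over fewer pairs such counts can hardly fall. In all microglia, 7.92% of all genes were higher in every pair without the non-diseased pair at 9 months, against 3.83% over all 5 pairs. For the other counts with a pair or IRM cells left out, the share of all genes is not given. Those counts can therefore not be set against other genes. The Nlrp3 median was -0.01 to 0.05 in all microglia over the alternatives, so that its sign is not settled, and -0.07 to -0.02 in HM.

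The interaction with age gave 0 to 2 members past both limits with 1 pair left out, where the lone pair of that age is assumed to vary like the others, and that with the Nlrp3 effect 0 to 0. T cells gave 0 to 1. Members with a lower amyloid effect in BAM, 14, were 5 with HM, 8 with library size alone, 10 with microglia without IRM and 7 to 15 with 1 pair left out. The ratio of the IRM share was 1.69 to 2.14 with 1 pair left out. Of 420 values for 30 named genes and comparisons, 387 kept their side of the limit, 11 lost it, 22 gained it and 0 changed sign. These genes were chosen for 1 sign in every pair, so leaving out a pair could hardly turn a sign. A gene that passed neither before nor after counts as having kept its side. These counts are therefore no measure of stability. The causes of these changes were not tested.

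Depth limited the sparse members most. Oas2, Oas3, Ifi211, Ifi44, Cmpk2 and Cxcl10 could not be tested in HM, and Zbp1 and Rsad2 there rest on 112 and 80 UMIs. With 1 library a group, differences between mice within a group were not measured, and age cannot be told apart from batch.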

Other observations

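Higher in APP/PS1 T cells in 4 of 4 pairs, with an unadjusted p under 0.05 and none past the adjusted test, were Ifih1, an RNA sensor (log2 fold change 1.36), Ifit3 (1.04), Ifit1 (0.93), Gbp2 (0.79), Herc6 (0.46, higher in 3 of 4 by CPM) and Bst2 (0.35). The non-diseased libraries at 3 months held the fewest T cells, 27 in WT. Values of Ifih1, Ifit3 and Ifit1 rest on few counts there, and Ifih1 was almost level by CPM in the WT pair. The share of all genes that met both conditions is not given. Ifi27l2a, the member with the largest value of 1 sign in microglia, was lower in T cells in 4 of 4 pairs (-0.68, adjusted p = 0.144 in edgeR). Ifitm3 stood at -1.51 with 2 pairs in each direction. The difference between T cells and microglia was not tested.

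In HM, Cxcl10 went against the other members over the 10 libraries (Spearman's rho of -0.88 with the sum of the others, 75 UMIs in all), where Slfn5 and Lgals3bp shared the highest value (0.94). This is a description of sparse counts. In B cells, BAM expressing Lyve1, cDC2 and NK cells, each with at least 10 cells in the libraries used, 0 members passed both limits. For these types the numbers of pairs and of members tested and the share of all genes are not given. The 0 can therefore not be set against other genes.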
